A study of Mus musculus with 8 samples.

Results

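Small leucine-rich proteoglycans are secreted matrix proteins whose short core is built of leucine-rich repeats, and the 10 genes described here encode the connective-tissue members Prelp, Fmod, Dcn, Lum, Bgn, Ogn, Aspn, Omd, Kera and Podn. They were found by gene symbol, and all 10 were among the 31276 genes of the expression table. The libraries came from C3H10T1/2 cells, a mouse embryonic mesenchymal line that can form cartilage, bone and fat, each stably expressing 1 FLAG-HA-tagged histone H3 transgene. With 1 library per transgene there were 8 lines: H3.1 K36M, H3.3 K36M, H3.3 K36I, H3.1 K36R, H3.3 K36R, H3.3 K36A, H3.3 K36L and H3.3 WT, where WT is the wild-type histone and K36M means that the lysine at position 36 is replaced by methionine (I isoleucine, R arginine, A alanine, L leucine). All lines were grown in medium with 10% fetal bovine serum and are labelled as passage 10 to 15. The labels name no change to the cells' own histone H3 genes, and do not say whether a line is a clone or a pool, or whether any was made more than once. The table gives reads per gene, so the substitution itself cannot be checked in it. The p-values below therefore measure only the spread between these lines, which may be partly technical.

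K36M and K36I histones have been described as inhibitors of the enzymes that methylate lysine 36 of histone H3, so the H3.1 K36M, H3.3 K36M and H3.3 K36I lines (n = 3) were set against the other lines (n = 5). In bulk RNA, fewer cells of a type and less RNA per cell cannot be told apart. Library depth was 45448249 to 68020958 reads, and values are given as normalised reads, which are reads divided by 1 size factor per library. Differences are on the deposited log2 scale, a variance-stabilised one that follows log2 reads for well-covered genes and understates the change of genes with few reads.

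These proteoglycans bind collagen and set how fibrils assemble, space and thicken. Many carry chondroitin, dermatan or keratan sulfate chains, and several bind growth factors of the transforming growth factor beta (TGF-beta) family. Dcn, Bgn and Aspn (decorin, biglycan and asporin) form one branch of the family. Fmod, Lum, Prelp, Kera and Omd (fibromodulin, lumican, PRELP, keratocan and osteomodulin) form a branch in which several members carry keratan sulfate, Ogn (osteoglycin, also mimecan) belongs to another, and Podn is podocan. Tendon, cartilage, bone and cornea are rich in these proteins. Their genes lie partly in clusters: Prelp and Fmod on mouse chromosome 1, Dcn, Lum and Kera on chromosome 10, and Aspn, Omd and Ogn on chromosome 13, while Bgn is on chromosome X and Podn on chromosome 4.

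The promoters of Prelp, Fmod and Ogn are shown because these 3 genes fell in the K36M and K36I lines, and that of Bgn because it was among the best-expressed members and did not pass that test. Each is the RefSeq window of assembly GRCm38.p6, from 250 bases before to 50 bases after the annotated start, printed 5′ to 3′ on the gene's strand, at chr1:133921352-133921651 on the minus strand for Prelp and on the plus strand at chr1:134037004-134037303 for Fmod, chr13:49607765-49608064 for Ogn and chrX:73483351-73483650 for Bgn. Capitals mark matches, on either strand, to the 6 motifs searched. These were TATAAA (the TATA box), GGGCGG (the GC box of Sp1), TGANTCA (the core site of AP-1 factors), ACAATG (of Sox factors), TGNGGT (of Runx factors) and GGAATG (of Tead factors).
Prelp: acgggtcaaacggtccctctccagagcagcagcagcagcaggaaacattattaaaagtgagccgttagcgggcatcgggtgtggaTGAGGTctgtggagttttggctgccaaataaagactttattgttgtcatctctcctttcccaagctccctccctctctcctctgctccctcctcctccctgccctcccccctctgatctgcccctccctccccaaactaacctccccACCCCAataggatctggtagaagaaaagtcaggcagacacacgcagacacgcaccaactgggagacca
Fmod: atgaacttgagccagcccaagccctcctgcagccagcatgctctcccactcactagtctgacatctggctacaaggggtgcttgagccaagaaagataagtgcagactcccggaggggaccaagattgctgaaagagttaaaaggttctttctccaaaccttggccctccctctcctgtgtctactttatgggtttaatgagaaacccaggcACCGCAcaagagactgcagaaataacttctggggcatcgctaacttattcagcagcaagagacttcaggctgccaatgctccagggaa
Ogn: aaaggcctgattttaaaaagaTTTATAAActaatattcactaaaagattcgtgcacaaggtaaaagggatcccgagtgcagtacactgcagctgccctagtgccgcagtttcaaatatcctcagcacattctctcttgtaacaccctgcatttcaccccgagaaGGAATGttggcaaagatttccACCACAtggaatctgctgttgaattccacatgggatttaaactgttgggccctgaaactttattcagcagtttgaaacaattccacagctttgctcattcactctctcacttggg
Bgn: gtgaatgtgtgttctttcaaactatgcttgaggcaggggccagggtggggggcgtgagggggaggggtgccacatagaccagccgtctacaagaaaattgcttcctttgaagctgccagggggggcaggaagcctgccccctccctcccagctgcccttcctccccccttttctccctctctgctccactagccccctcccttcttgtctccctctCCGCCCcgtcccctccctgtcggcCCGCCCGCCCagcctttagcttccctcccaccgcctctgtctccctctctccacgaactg
Among 32851 RefSeq promoters of the same length, TATAAA was in 13.6%, GGGCGG in 35.7%, TGANTCA in 7.81%, ACAATG in 12.6%, TGNGGT in 45.8% and GGAATG in 14.7%. The Prelp window held TGNGGT in 2 places and the Fmod window in 1. The Ogn window held TATAAA on both strands in 2 overlapping places, TGNGGT in 1 and GGAATG in 1. In the Bgn window GGGCGG occurred 3 times, 2 of them overlapping, and its GC content was 63.7%, beside 55.3% for Prelp, 51% for Fmod, 42.3% for Ogn and a median of 52.7% over all windows. A match is a description of letters only. In all, 8 of the 10 members had a window in this table.

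Read per kb of exon, so that genes can be compared, Ogn and Bgn led the family with means of 8809 and 7029 normalised reads per kb over the 8 libraries. Aspn followed with 4573, Prelp with 1957 and Omd with 1464. Dcn (130.0) and Fmod (96.8) were an order of magnitude lower, and Podn (6.54), Lum (3.45) and Kera (0.102) were lower still. The ranges over libraries were wide, and neighbours in this order overlapped except Omd (lowest 637) and Dcn (highest 367.3): Ogn ran between 2290.2 and 13112, Bgn between 4589 and 10777, Aspn between 1213 and 11193, and Prelp between 109.8 and 3491 normalised reads per kb. Genes were tested where their mean was at least 1 above the lowest value of the table (about 31.0 normalised reads), which left 14215 genes and 7 of the 10 members. Lum, Kera and Podn did not pass this filter.

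Among the members, 3 fell in the K36M and K36I lines and 0 rose: Prelp, Fmod and Ogn (limma, adjusted p under 0.05 after Benjamini-Hochberg adjustment over all genes tested). Over all genes tested, 6.82% fell and 6.45% rose, so that 48.6% of calls were higher (58.9% with library medians set equal). The other 4 tested members, Dcn, Aspn, Omd and Bgn, also had lower means in the K36M and K36I lines, but their values overlapped those of the other lines and they did not pass. The median difference of the 7 tested members was -1.35 on the log2 scale, beside -0.01 over all genes tested. The same 3 members were the only ones whose K36M and K36I lines all lay below every other line, an arrangement found in 11.5% of genes tested.

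**Figure D1:**
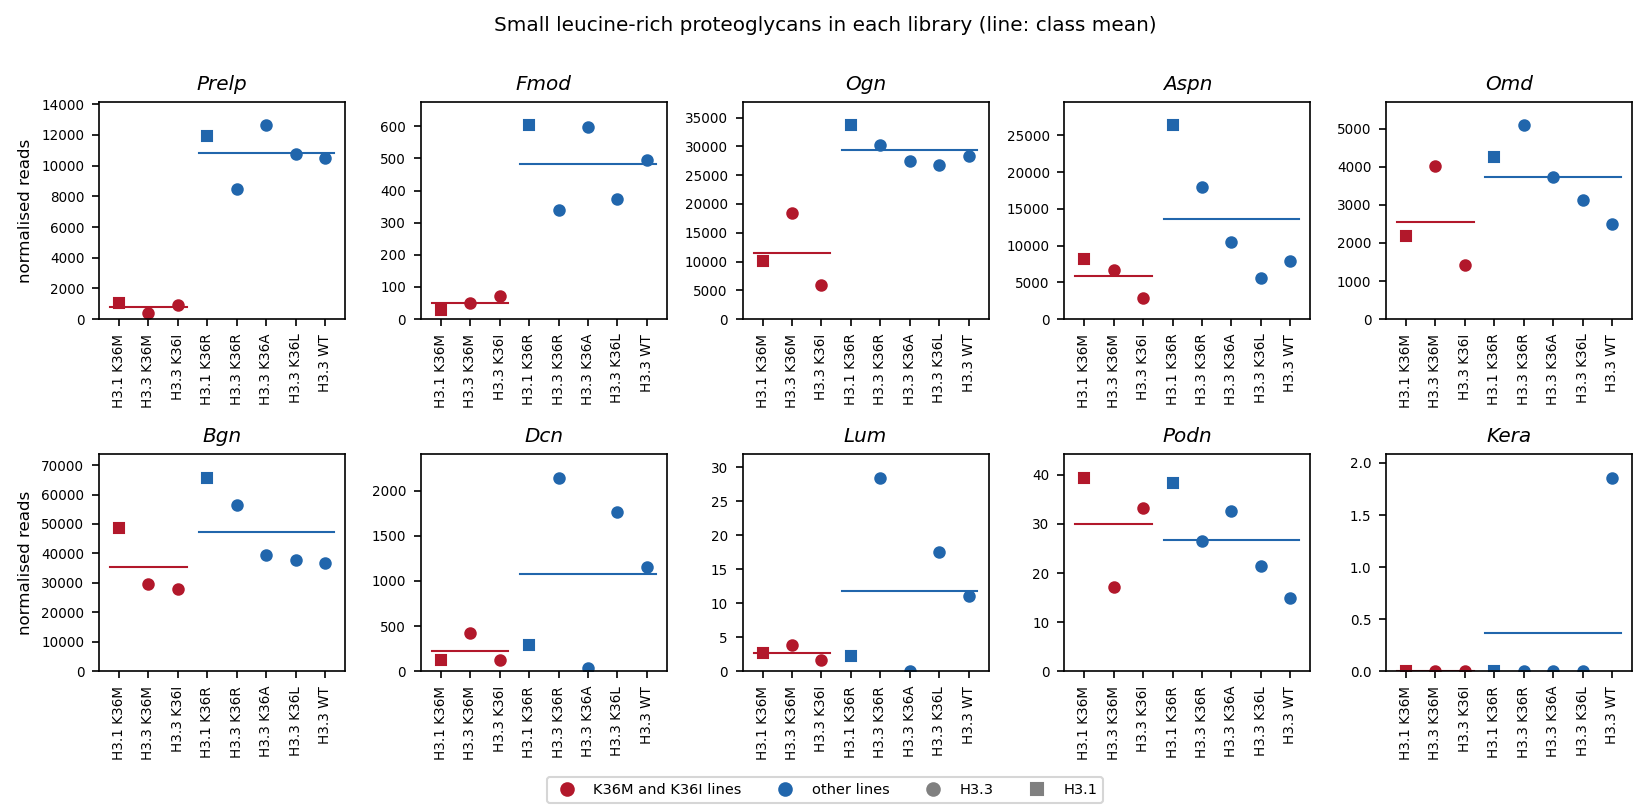
Normalised reads (vertical axis, linear, from 0) of the 10 proteoglycans in each of the 8 libraries, with the K36M and K36I lines left of the other lines, H3.1 lines as squares and H3.3 lines as circles; horizontal lines are means of the 3 and of the 5 lines. Prelp, Fmod and Ogn show no overlap between the 2 sets of lines, whereas Dcn spans 40.2 to 2144 normalised reads within the 5 other lines.

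Prelp, which anchors basement membranes to connective tissue by binding heparan sulfate chains and collagen, showed the largest difference of the family. It had 1036, 397 and 894 normalised reads in the H3.1 K36M, H3.3 K36M and H3.3 K36I lines, against 11959, 8452, 12620.3, 10748 and 10498.5 in the H3.1 K36R, H3.3 K36R, H3.3 K36A, H3.3 K36L and H3.3 WT lines. The highest K36M or K36I line was thus far below the lowest of the others. Means were 775.6 ± 335.4 (SD, n = 3) in K36M and K36I lines and 10855.5 ± 1600.5 (SD, n = 5) in the other lines, which is 14.0-fold lower; the log2 difference was -3.69 ± 0.25 (SE, adjusted p = 0.000121, limma). The two-sided exact permutation test over the 56 ways of choosing 3 lines of 8 gave p = 0.0179, the smallest p it can give. Within the 6 H3.3 lines alone the difference was -3.88 ± 0.27 (SE, adjusted p = 0.000562, limma), and with any 1 library left out it stayed between -3.91 and -3.33 and passed in all 8 fits. H3.1 K36M minus H3.1 K36R was -3.38 and H3.3 K36M minus H3.3 K36R was -4.06 on the log2 scale. Exons of Prelp overlap those of the antisense gene Gm15851, and whether counting used strand is not given in the sources used here, so their reads cannot be separated.

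Fmod, a keratan sulfate proteoglycan that binds fibrillar collagen and is prominent in tendon, lies on the same stretch of chromosome 1 as Prelp. It had 28.9, 50.6 and 73.2 normalised reads in the H3.1 K36M, H3.3 K36M and H3.3 K36I lines, against 602.4, 339.9, 596.7, 374.1 and 495.4 in the H3.1 K36R, H3.3 K36R, H3.3 K36A, H3.3 K36L and H3.3 WT lines. The sets did not overlap, and the K36M and K36I lines averaged 50.9 ± 22.1 (SD, n = 3) against 481.7 ± 122.1 (SD, n = 5), or 9.47-fold lower. The 22 reads behind the H3.1 K36M value have an exact 95% Poisson interval of 13.8 to 33.3, well under the 551 reads of H3.1 K36R (505.9 to 599.0). Such intervals cover counting error only. The log2 difference was -2.0 ± 0.19 (SE, adjusted p = 0.000623, limma). With any 1 library left out it was -2.13 to -1.87 and passed in all 8 fits, and within H3.3 lines it was -1.79 ± 0.20 (SE, adjusted p = 0.0025, limma).

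Ogn, a matrix protein of bone and other connective tissue that takes part in collagen fibril formation, had 10016, 18408 and 5877 normalised reads in the H3.1 K36M, H3.3 K36M and H3.3 K36I lines. It had 33645, 30297, 27436, 26727 and 28417 in the H3.1 K36R, H3.3 K36R, H3.3 K36A, H3.3 K36L and H3.3 WT lines. The K36M and K36I lines were spread widely, while the other lines differed little. The difference was -1.49 ± 0.30 on the log2 scale (SE, 95% interval -2.17 to -0.81, adjusted p = 0.0131, limma; 3 against 5 lines), and the means differed 2.56-fold. It passed with any 1 library left out. Within the 6 H3.3 lines alone the difference was -1.425 ± 0.385 (SE, adjusted p = 0.0461, limma), close to the threshold. Reads of the ribosomal gene Rn45s made up 5.239% of the H3.3 K36A library and 3.107% of the H3.3 K36L library, beside 1.663% to 2.192% in the others; without these 2 libraries the difference was -1.57 and no longer passed (adjusted p = 0.0534).

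Aspn and Omd lie beside Ogn on chromosome 13. Aspn encodes asporin, which binds collagen and TGF-beta and holds back TGF-beta signalling in cartilage. It had 8125, 6737 and 2854 normalised reads in the H3.1 K36M, H3.3 K36M and H3.3 K36I lines, against 26347, 18037, 10502, 5589.7 and 7928 in the H3.1 K36R, H3.3 K36R, H3.3 K36A, H3.3 K36L and H3.3 WT lines. The 2 K36R lines were highest, and H3.3 K36L lay below 2 of the 3 K36M and K36I lines. The difference of -1.10 ± 0.52 (SE, 95% interval -2.29 to 0.09) did not pass (adjusted p = 0.209, limma; 3 against 5 lines). Exons of Aspn overlap those of Cenpp on the opposite strand, so reads of the pair cannot be separated either; Cenpp itself differed by -0.48 ± 0.26 (SE, adjusted p = 0.264).

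Omd, a keratan sulfate proteoglycan of mineralising bone, had 2180.4, 4029 and 1433 normalised reads in the H3.1 K36M, H3.3 K36M and H3.3 K36I lines, against 4272, 5088, 3724, 3119 and 2497 in the H3.1 K36R, H3.3 K36R, H3.3 K36A, H3.3 K36L and H3.3 WT lines. The H3.3 K36M line lay within the range of the other lines. The difference of -0.61 ± 0.32 (SE, 95% interval -1.34 to 0.12) did not pass (adjusted p = 0.253, limma).

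Bgn, which binds collagen and TGF-beta and is abundant in bone and skin, had the largest read number of the family in every library. It had 48742, 29666 and 27989 normalised reads in the H3.1 K36M, H3.3 K36M and H3.3 K36I lines, against 65728, 56465, 39470.0, 37947 and 36929 in the H3.1 K36R, H3.3 K36R, H3.3 K36A, H3.3 K36L and H3.3 WT lines. The H3.1 K36M line exceeded 3 of the other lines. The means were 35465.5 ± 11528.5 (SD, n = 3) in K36M and K36I lines and 47307.7 ± 13037.9 (SD, n = 5) in the other lines, and the log2 difference of -0.42 ± 0.25 (SE, 95% interval -0.99 to 0.15) did not pass (adjusted p = 0.32, limma). With the histone, H3.1 or H3.3, as a covariate it was -0.51 and passed (adjusted p = 0.0395).

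Dcn, the best-known member, binds fibrillar collagen, TGF-beta and the receptor Met. It had 128.8, 425.6 and 122.5 normalised reads in the H3.1 K36M, H3.3 K36M and H3.3 K36I lines, against 295.2, 2144, 40.2, 1764.5 and 1151.5 in the H3.1 K36R, H3.3 K36R, H3.3 K36A, H3.3 K36L and H3.3 WT lines. The lowest value of all was in the H3.3 K36A line and the highest in the H3.3 K36R line, 4.06 apart on the log2 scale. The difference between K36M and K36I lines and the others, -1.35 ± 0.89 (SE, 95% interval -3.37 to 0.67), did not pass (adjusted p = 0.368, limma).

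Lum, a keratan sulfate proteoglycan best known for corneal transparency, and Epyc (epiphycan), a relative known from growth-plate cartilage, lie downstream of Dcn on the same strand of chromosome 10, with Kera between them. Lum had 2, 4 and 2 reads in the H3.1 K36M, H3.3 K36M and H3.3 K36I libraries, against 2, 30, 0, 18 and 12 in the H3.1 K36R, H3.3 K36R, H3.3 K36A, H3.3 K36L and H3.3 WT libraries. The exact Poisson interval was 20.2 to 42.8 for the 30 reads of H3.3 K36R, and that for the 0 of H3.3 K36A reached 3.69. Epyc had 2.63, 3.82 and 0 normalised reads in the H3.1 K36M, H3.3 K36M and H3.3 K36I lines, against 0, 117.7, 11.5, 33.1 and 27.9 in the H3.1 K36R, H3.3 K36R, H3.3 K36A, H3.3 K36L and H3.3 WT lines. In Dcn, Lum and Epyc alike the H3.3 K36R, H3.3 K36L and H3.3 WT lines held the 3 highest values, in that order, a pattern picked out after the values were seen and not tested. Dcn was the only 1 of the 6 coding genes within 500 kb of Dcn, Lum and Kera to pass the filter.

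**Figure D2:**
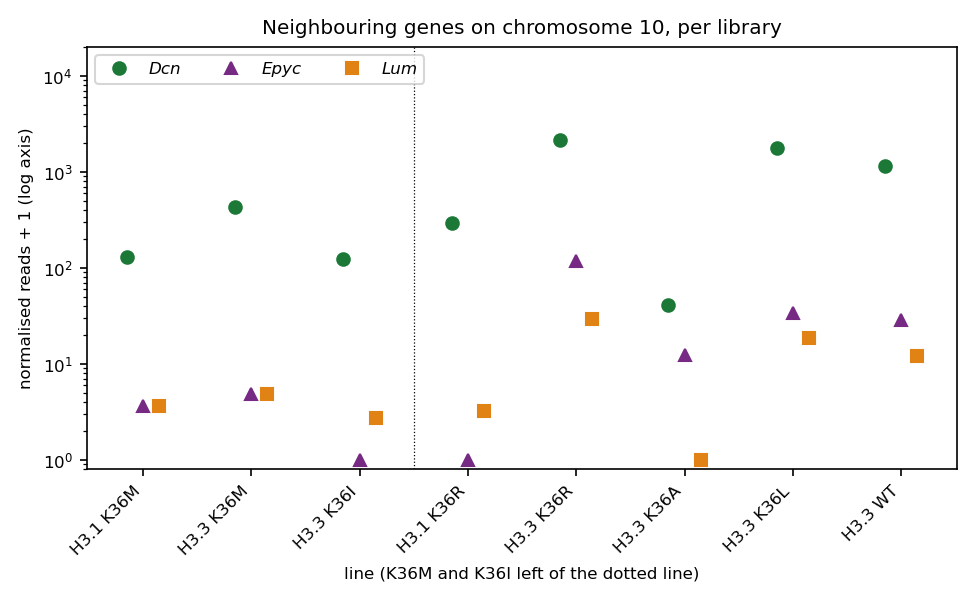
Normalised reads + 1 (log axis) of Dcn, Epyc and Lum in each library, with the K36M and K36I lines left of the dotted line; points are single libraries, shifted sideways so that none is hidden. The H3.3 K36R, H3.3 K36L and H3.3 WT lines are highest for all 3 genes. The H3.3 K36A line is lowest for Dcn (40.2 normalised reads) and Lum (0), but its 11.5 for Epyc lies above the K36M and K36I lines. The H3.1 K36R line has 295.2 normalised reads of Dcn, 2.19 of Lum and 0 of Epyc.

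Kera, a corneal keratan sulfate proteoglycan, had 0 reads in 7 libraries and 2 reads in H3.3 WT. A count of 0 was taken to allow up to 3 reads, which is between 4.41e-06% and 6.601e-06% of a library. Podn, first described in podocytes of the kidney, had 39.4, 17.2 and 33.2 normalised reads in the H3.1 K36M, H3.3 K36M and H3.3 K36I lines and 38.3, 26.6, 32.6, 21.4 and 14.9 in the H3.1 K36R, H3.3 K36R, H3.3 K36A, H3.3 K36L and H3.3 WT lines. The 2 H3.1 lines had the 2 highest values. Tested without the filter, none of the 3 passed (limma adjusted p = 0.523 for Lum, 0.699 for Kera and 0.841 for Podn).

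Summed over the 10 members, the family made up 0.1177%, 0.1024% and 0.06787% of reads in the H3.1 K36M, H3.3 K36M and H3.3 K36I libraries. In the H3.1 K36R, H3.3 K36R, H3.3 K36A, H3.3 K36L and H3.3 WT libraries it made up 0.2457%, 0.2007%, 0.1538%, 0.1432% and 0.1507%, so the 2 sets did not overlap. Prelp supplied 0.665% to 2.28% of the family's normalised reads in the K36M and K36I lines, against 6.99% to 13.4% in the other lines. Bgn supplied 49.7% to 71.3% in the K36M and K36I lines, against 41.8% to 46.7% in the others.

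The relatives outside the 10 did not all move with them. Of 8 other small leucine-rich proteoglycans and close relatives, 4 passed the filter, 2 rose and 1 fell, with a median difference of 0.33 on the log2 scale. Ecm2, an extracellular matrix protein with leucine-rich repeats encoded next to Aspn, fell by 1.52 ± 0.14 (SE, adjusted p = 0.000509, limma). It had 173.5, 125.0 and 103.8 normalised reads in the H3.1 K36M, H3.3 K36M and H3.3 K36I lines, against 468.1 to 678.1 in the other lines. Podnl1, a podocan-like protein, rose by 1.71 ± 0.17 (SE, adjusted p = 0.000736, limma), with 763.5 to 779.4 normalised reads in K36M and K36I lines and 85.3 to 207.0 in the others. Tsku (tsukushi), a secreted modulator of developmental signalling, rose by 0.78 ± 0.16 (SE, adjusted p = 0.0166, limma), with 946.7 to 1311.7 against 495.2 to 834 normalised reads; within the H3.3 lines alone it did not pass (0.66, adjusted p = 0.0538). Chadl, a chondroadherin-like protein, had -0.12 ± 0.13 (SE, adjusted p = 0.592), and Optc, Nyx and Chad were below the filter with Epyc. Tested without the filter, Nyx passed (0.31, adjusted p = 0.0485, limma). It had only 3.82 to 7.89 normalised reads in K36M and K36I lines against 0 to 1.95 in the others. Epyc, Optc and Chad did not pass without the filter (limma adjusted p = 0.257, 0.383 and 0.783).

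**Figure D3:**
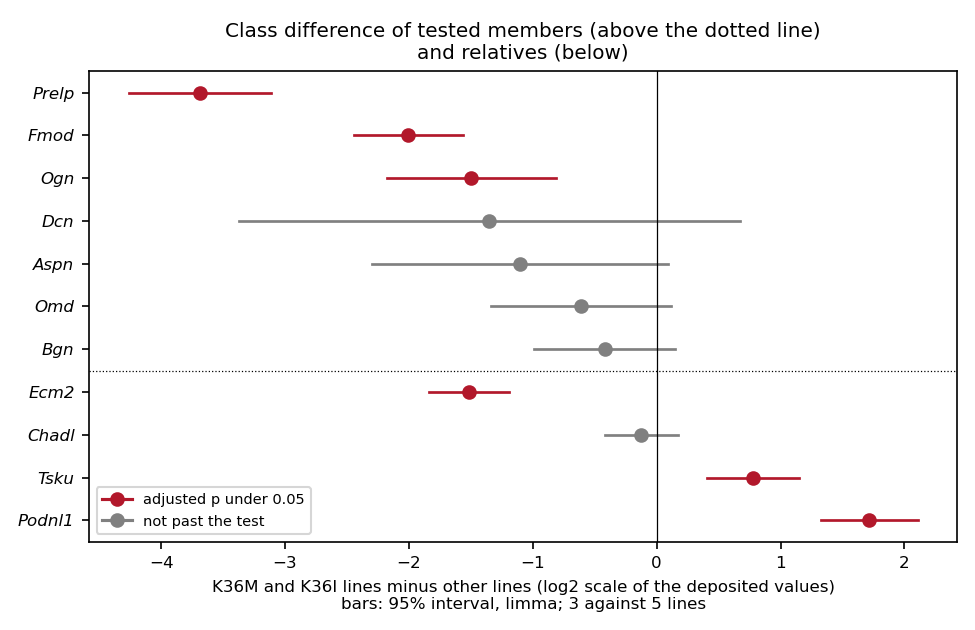
Difference of the K36M and K36I lines minus the other lines on the deposited log2 scale (horizontal axis) for the 7 tested members and, under the dotted line, 4 tested relatives; points are limma estimates and bars 95% intervals, 3 against 5 lines. Prelp (-3.69), Fmod (-2.0), Ogn (-1.49) and Ecm2 (-1.52) lie below 0 in red, Tsku (0.78) and Podnl1 (1.71) above it.

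Neighbouring coding genes were examined within 500 kb of the chromosome 1 and chromosome 13 members (GENCODE M21 annotation of GRCm38). Prelp (chromosome 1, 133910304 to 133921414, minus strand) and Fmod (134037254 to 134048277, plus strand) span 138.0 kb. Of 12 other tested genes there, 1 fell and 0 rose, where 6.82% and 6.45% of all genes tested did. The 1 that fell was Sox13, a transcription factor of the SoxD group, at -1.09 ± 0.28 (SE, adjusted p = 0.0379, limma), a call lost with any of 6 libraries left out. Btg2 and Atp2b4, which flank the pair among tested genes, had -0.11 ± 0.22 and -0.27 ± 0.46 (SE) and did not pass (adjusted p = 0.798 and 0.765, limma). Chit1, the next tested gene beyond Btg2, had means of 12 normalised reads in K36M and K36I lines and 107.0 in the others. Its difference of -0.98 ± 0.38 (SE) did not pass either (adjusted p = 0.131, limma). Optc, between Atp2b4 and Prelp, was below the filter.

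Aspn (chromosome 13, 49544443 to 49567565), Omd (49582462 to 49592822) and Ogn (49608046 to 49624501) all lie on the plus strand, in 80.1 kb, downstream of Ecm2 (49504810 to 49532789). Over all genes tested, 6.82% fell and 6.45% rose. Of the 10 other tested genes around these members, Ecm2 fell and 3 rose. These were Fgd3, a guanine nucleotide exchange factor for Cdc42 (2.46 ± 0.46, SE, adjusted p = 0.0101, limma), Bicd2, an adaptor of the dynein motor (0.65 ± 0.16, adjusted p = 0.0292), and Card19 (0.53 ± 0.09, adjusted p = 0.00636). The call on Bicd2 was lost with any of 4 libraries left out. Fgd3 had 10340, 3110.2 and 2103 normalised reads in the H3.1 K36M, H3.3 K36M and H3.3 K36I lines, against 375.5 to 902.3 in the other lines.

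**Figure D4:**
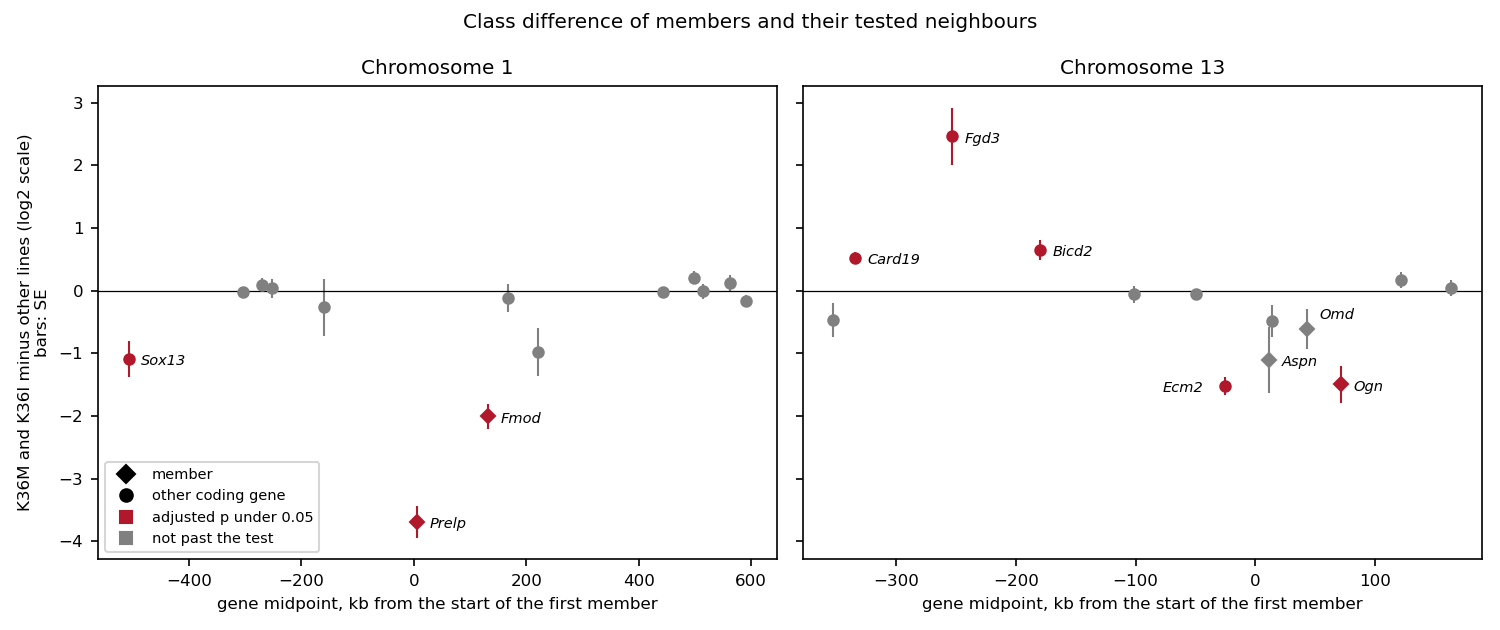
Difference of the K36M and K36I lines minus the other lines on the log2 scale (vertical axis) for tested coding genes, by the distance of the gene's midpoint in kb from the start of the first member, on chromosome 1 (left) and chromosome 13 (right); diamonds are members, red points passed the test, bars are SE. Prelp and Fmod are the only genes in red to the right of Sox13 on chromosome 1, and Ogn and Ecm2 lie below 0 where Fgd3 (2.46), Bicd2 (0.65) and Card19 (0.53) lie above it.

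Set singly against H3.3 WT, with no replicate and so no test, the mutant lines showed different patterns. Prelp, Fmod and Dcn were lower by at least 1 on the log2 scale in all 3 K36M and K36I lines. In H3.1 K36M 4 of the 10 members were lower by that much (with Ogn), where 4.23% of genes tested were. In H3.3 K36M there were 3, beside 4.41% of genes, and in H3.3 K36I 5 (with Ogn and Aspn), beside 4.17%. Of the other lines, H3.1 K36R had Aspn higher and Dcn lower, beside 2.08% and 1.25% of genes in those directions, and H3.3 K36R had Aspn higher, beside 1.06%. H3.3 K36A had Dcn lower, beside 1.32%, and H3.3 K36L had 0 of 10 past 1, beside 1.03% of genes either way. All 7 share the 1 WT library.

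The size differed by line. Relative to WT, Prelp was at -3.20 in H3.1 K36M, -4.37 in H3.3 K36M and -3.39 in H3.3 K36I on the log2 scale, whereas the K36R, K36A and K36L lines were between -0.31 and 0.26. Ogn differed by -0.62 in H3.3 K36M and by -2.25 in H3.3 K36I. Aspn was 1.72 above WT in H3.1 K36R and 1.17 above in H3.3 K36R. Dcn was at -3.23 in H3.3 K36A and at 0.57 in H3.3 K36L.

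**Figure D5:**
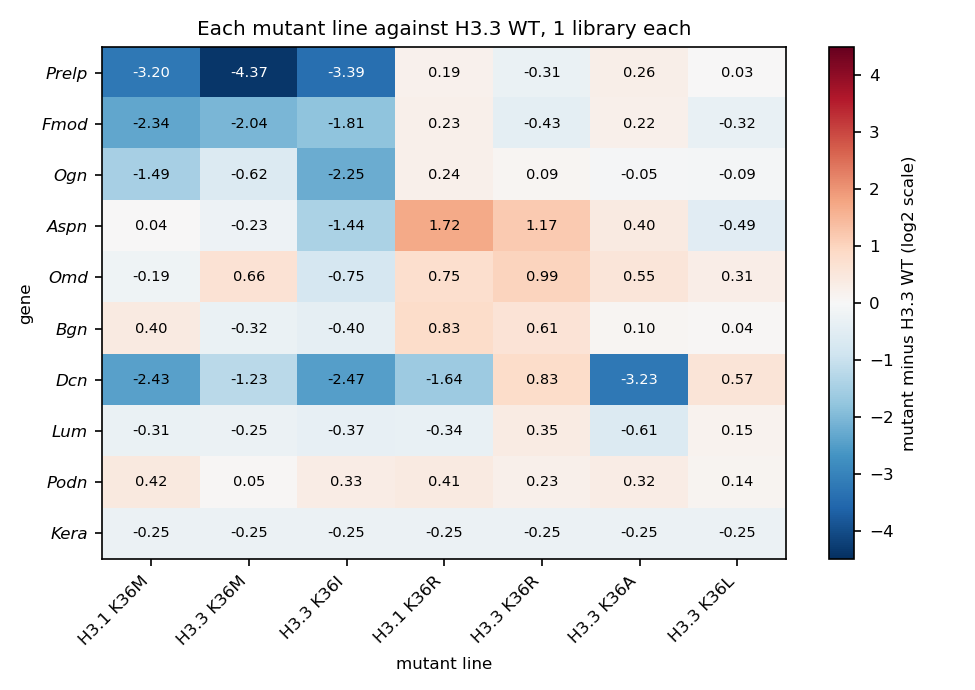
Each mutant line minus H3.3 WT on the log2 scale (colour and printed value) for the 10 members, 1 library a side, with no error estimate. The Prelp and Fmod rows are at -1.81 or lower in the H3.1 K36M, H3.3 K36M and H3.3 K36I columns and between -0.43 and 0.26 in the other 4, while the Dcn row also has -3.23 in H3.3 K36A.

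K36M and K36R are the only substitutions made in both histones, so the 2 K36M lines were also set against the 2 K36R lines. Of the members, 2 fell and 0 rose: Prelp (-3.72 ± 0.42, SE, adjusted p = 0.0383) and Fmod (-2.09 ± 0.28, SE, adjusted p = 0.0488, limma). Over all genes tested, 0.879% fell and 0.682% rose. These 4 libraries are part of the comparison above, so this is no second sample of the effect. Both calls were close to the threshold: Prelp did not pass without H3.1 K36R (adjusted p = 0.198) or without H3.3 K36R (0.189), and Fmod did not pass with any 1 of the 4 left out (adjusted p = 0.0501 to 0.177); each of these fits has 1 library on one side. Aspn, with 8125 and 6737 normalised reads in K36M lines against 26347 and 18037 in K36R lines, differed by -1.54 ± 0.23 (SE, adjusted p = 0.0585). With the histone as a covariate, which pairs the lines within each histone, Aspn passed (adjusted p = 0.0174). It also passed without H3.1 K36M (0.0464), where the lone K36M library is assumed to vary like the K36R pair. Ogn (-1.23 ± 0.31), Bgn (-0.68 ± 0.28), Dcn (-1.43 ± 0.88) and Omd (-0.63 ± 0.31, all SE) did not pass, with adjusted p = 0.177, 0.404, 0.609 and 0.485 (limma); without H3.3 K36M, Ogn passed at -1.66 (adjusted p = 0.0226), under the same assumption for the lone K36M library.

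Whether the tagged histone was H3.1 or H3.3 was compared with the K36M and K36I lines kept apart as a term. Of the 7 tested members 1 passed, Bgn, where 5.65% of all genes tested were higher in H3.1 lines and 5.37% lower. It was higher in H3.1 by 0.69 ± 0.16 on the log2 scale (SE, 95% interval 0.32 to 1.06, adjusted p = 0.0354, limma), with 48742 and 65728 normalised reads in the 2 H3.1 lines against 27989 to 56465 in the 6 H3.3 lines. The ranges overlapped through H3.3 K36R. The H3.1 lines carry only K36M or K36R, whereas the H3.3 lines also include K36I, K36A, K36L and WT, so histone and substitution are partly mixed. In the 4 K36M and K36R libraries alone Bgn differed by 0.466 ± 0.213 (SE, adjusted p = 0.446, limma) and did not pass. With no term for the K36M and K36I lines it differed by 0.609 (adjusted p = 0.212, limma), also not passing. Bgn did not pass with any library but H3.3 K36R left out (adjusted p = 0.0606 to 0.195). The H3.1 libraries were also the shallowest, with 45448249 and 53199065 reads against 61139941 to 68020958 in the H3.3 libraries, and the part of depth was not tested. Aspn (1.18 ± 0.45, adjusted p = 0.123), Prelp (0.41 ± 0.26, adjusted p = 0.314) and Dcn (-0.91 ± 0.99, all SE, adjusted p = 0.575) did not pass.

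Whether the difference between K36M or K36I lines and the other lines itself differed between H3.1 and H3.3 was tested as an interaction. The 2 differences are not alike: in H3.1 it is K36M minus K36R, with 1 library per transgene. In H3.3 it sets K36M and K36I against K36R, K36A, K36L and WT. The spread between lines in this fit comes from the H3.3 lines alone. None of the members passed, and neither did any other gene (0.00% of 14215 genes in limma; 1582 at unadjusted p under 0.05). For Prelp the interaction was 0.49 ± 0.52 (SE, 95% interval -0.74 to 1.72, adjusted p = 0.774). For Fmod it was -0.78 ± 0.38 (SE, 95% interval -1.69 to 0.13, adjusted p = 0.508), and for Ogn -0.31 ± 0.74 (SE, adjusted p = 0.912). Both intervals include 0, with that of Prelp mostly above it and that of Fmod mostly below it.

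Genes that work with these proteoglycans were followed as fixed lists. Of 19 collagens and lysyl oxidases, which build and cross-link the fibrils that the proteoglycans coat, all were tested, 7 fell and 0 rose, with a median of -0.45 beside -0.01 over all genes. The largest were Col11a1 (-3.43 ± 0.41, adjusted p = 0.00147) and Col2a1 (-2.24 ± 0.29, adjusted p = 0.00201), the fibril collagens of cartilage, then Col6a2 (-1.06 ± 0.24, adjusted p = 0.0232) and Col6a1 (-1.06 ± 0.16, SE, adjusted p = 0.00407, limma), chains of the beaded collagen VI to which decorin and biglycan bind. Col6a2 did not pass without H3.3 K36M (adjusted p = 0.0832) or H3.3 K36R (0.051).

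Of 26 enzymes that build chondroitin, dermatan and keratan sulfate chains, 22 were tested, 4 fell and 2 rose, and the median was -0.05. The chondroitin sulfotransferases Chst7 (-2.38 ± 0.31, adjusted p = 0.0022), Chst11 (-1.91 ± 0.31, adjusted p = 0.0059) and Chst15 (-1.02 ± 0.23, adjusted p = 0.0199) fell. Chst7 averaged 225.0 ± 167.2 normalised reads in K36M and K36I lines and 1522.1 ± 384.9 in the other lines (SD, n = 3 and 5). Chst1, a sulfotransferase of keratan sulfate, rose by 1.49 ± 0.16 (SE, adjusted p = 0.000909, limma), with means of 1876.2 ± 417.5 normalised reads in K36M and K36I lines and 587.1 ± 102.4 in the others. Chst15 did not pass without H3.3 K36I (adjusted p = 0.0763) or without H3.3 WT (0.0516).

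Of 12 proteases that process or degrade matrix proteoglycans, 8 were tested, 3 fell and 0 rose, with a median of -0.21: Adamts1 (-1.83 ± 0.49, adjusted p = 0.0416), Adamts5 (-1.13 ± 0.20, adjusted p = 0.00769) and Mmp2 (-0.49 ± 0.11, SE, adjusted p = 0.0228, limma). Adamts1 was lost in 6 of the fits that leave out 1 library and Mmp2 in 2, without H3.3 K36M or without H3.3 WT. Of 16 growth factors and receptors that these proteoglycans bind, 13 were tested, 2 rose and 1 fell, with a median of -0.16. Met, the receptor for hepatocyte growth factor that decorin also binds, rose by 1.84 ± 0.22 (SE, adjusted p = 0.0014), and the TGF-beta receptor Tgfbr2 by 0.80 ± 0.20 (SE, adjusted p = 0.0306), whereas the ligand Tgfb2 fell by 1.83 ± 0.32 (SE, adjusted p = 0.00746; limma). Tgfbr2 did not pass in 5 of the fits that leave out 1 library.

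Of 28 other proteoglycans and link proteins, 17 were tested, 2 rose and 2 fell, with a median of -0.03. Gpc6 (-1.87 ± 0.21, adjusted p = 0.00118) and Gpc4 (-1.44 ± 0.30, adjusted p = 0.0157), cell-surface heparan sulfate glypicans, fell. Tgfbr3 (0.65 ± 0.18, adjusted p = 0.0470), the TGF-beta co-receptor betaglycan, and Srgn (0.48 ± 0.12, SE, adjusted p = 0.0307, limma), the intracellular proteoglycan serglycin, rose; each of these 2 was lost in at least 6 of the fits that leave out 1 library, and Gpc4 without H3.3 K36M (adjusted p = 0.0665).

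Among the genes named from these lists and near the members, the calls on Col6a2 (adjusted p = 0.0969), Adamts1 (0.139), Mmp2 (0.0947), Tgfbr3 (0.147), Srgn (0.123), Sox13 (0.13), Bicd2 (0.118) and the marker Twist1 (0.102) were also lost in limma without the Rn45s-rich H3.3 K36A and H3.3 K36L libraries.

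Marker lists of cell types were read the same way. All 11 mesenchymal markers were tested and 2 rose, Twist1 and Twist2 (Twist1 not without H3.3 K36M or H3.3 WT), and their summed reads were 593056 to 797656 in the K36M and K36I lines and 767047 to 1044395 in the other lines. Of 13 cartilage markers 9 were tested and 5 fell (Sox6, Sox9, Col2a1, Comp and Matn3), with sums of 10486 to 15026 in the K36M and K36I lines against 41794 to 101155 in the others; their part in the proteoglycan result was not tested. Of 6 tendon markers 5 were tested: Tnmd, a membrane glycoprotein of tendon cells, fell (-2.82 ± 0.33, adjusted p = 0.0013) and Scx, a tendon transcription factor, rose (1.36 ± 0.28, SE, adjusted p = 0.0149, limma), with Scx not passing without H3.3 K36M or H3.3 K36I. Their sums were 9345 to 10948 in the K36M and K36I lines against 8456 to 23523 in the others.

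Of 9 leukocyte markers 3 were tested and 2 rose, Cd53 and Lcp1, with sums of 4982 to 14707 normalised reads against 269.5 to 752.8, while the defining marker Ptprc was at 1.7 to 7.89 in the K36M and K36I lines and at 0 to 3.9 in the others, and Cd3e was at 0 in every library. Of 4 endothelial markers 2 were tested and Tek fell, with sums of 496.3 to 594.1 against 1806 to 3374 and Pecam1 at 5.1 to 10.5 against 5.75 to 20.5 normalised reads. Of 6 epithelial markers 2 were tested and 0 passed (limma), Krt14 at -2.37 ± 1.19 (SE, adjusted p = 0.234) and Cdh1 at 0.69 ± 0.26 (SE, adjusted p = 0.12). Krt14 passed with array weights (-2.93, adjusted p = 0.0394) and without H3.1 K36R (-3.19, 0.0457), and Cdh1 without H3.3 K36A (0.86, 0.0353). The epithelial markers had sums of 724.2 to 1757 in K36M and K36I lines against 563.1 to 7854 and Epcam at 0 against 0 to 2.19. Of 5 skeletal muscle markers 1 was tested and 0 passed (limma), with sums of 174.8 to 200.4 against 108.3 to 234.8; Myod1 and Myog had at most 1.95 normalised reads in any library. The part of leukocyte, endothelial and epithelial marker genes in the proteoglycan result was not tested.

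Over the 8 libraries, the genes most like each tested member were ranked by Pearson r on the log2 values among 11918 tested genes, leaving out predicted genes. The points share libraries and size factors, and lines of one kind lie together, so r is given as a description. Prelp was most like Dclk2 (0.989), Inpp1 (0.989) and Nsun4 (0.988), and Fmod most like Malt1 (0.993), Lrp5 (0.989) and Zfp36l1 (0.989). For Ogn they were Glis3 (0.991), Hibadh (0.969) and Vkorc1 (0.968). For Aspn they were Cenpp (0.983), with which it shares exonic sequence on opposite strands, Ccny (0.98) and Apba1 (0.971). For Bgn they were Ddit4l (0.98), Atp8b1 (0.974) and Fut8 (0.967), for Omd Ankdd1b (0.961), Aph1a (0.956) and Atg4b (0.951), and for Dcn Plcl2 (0.963), Srgap1 (0.951) and Ttll7 (0.947). Among the members themselves r was 0.96 for Prelp with Fmod and 0.898 for Bgn with Aspn, and between 0.168 and 0.5 for Dcn with each of the others.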

How the data were processed

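Per the labels' protocols, RNA was taken with Trizol and made into Illumina TruSeq libraries. STAR 2.3.0e, featureCounts 1.4.4, Trimmomatic 0.32, DESeq2 and mm10 are listed in the submitters' processing notes; the sources used here give no settings, annotation or strand use. What the authors deposited are log2 values, in which reads per gene over a size factor were variance-stabilised. Inverting it gave whole reads for 100% of values, within 0.001 reads. limma 3.58.1 (R 4.3.3, intensity trend, two-sided, Benjamini-Hochberg at 0.05) was run on the deposited log2 values of 14215 genes; 17061 below the filter were left out, of which 8275 had no read. The steps were tested on simulated data. Lines were grouped by transgene, and the 3 K36M and K36I lines formed one group because no transgene has a replicate. Members, the 6 gene lists, the 7 marker lists and the tests were chosen with earlier results of these data known. All members and their 8 relatives were named, with up to 4 called genes of each other list with the largest differences, the 3 most alike genes per tested member, and called coding genes within 500 kb. Gene lengths and coordinates come from GENCODE M21, promoters from RefSeq. Alternatives were other filters, scales, scalings, weights, covariates and subsets of libraries.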

Additional observations from a re-analysis of the deposited data

Results flagged for a closer look

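Kera in H3.3 WT stood apart from the other 4 lines without K36M or K36I, with 1.86 normalised reads (2 reads) where the others had 0. With the other 4 lines tied at 0, the test for a single far-off sample used here would flag any read in 1 line. Its usual rate of about 1 in 20 groups therefore does not hold, and the flag carries no weight. The exact Poisson interval of 2 reads, 0.242 to 7.22, overlaps that of a count of 0, which reaches 3.69.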

How the results depend on the processing

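Prelp and Fmod kept direction and call in the comparison of K36M and K36I lines with the other lines under all 18 alternatives run, and Ogn under 17, being lost without the H3.3 K36A and H3.3 K36L libraries (adjusted p = 0.0534), an alternative chosen after seeing the data. Members called numbered 2 to 4 throughout. Genes called numbered 1887, with 48.6% higher; they were 4074 with array weights, 2959 with histone as a covariate, 1171 without the 2 libraries richest in Rn45s, and 1021 to 2084 with 1 library left out, lowest without H3.3 K36M. With library medians set equal, which moved libraries by -0.04 to 0.02, 58.9% of 1961 calls were higher. For H3.1 against H3.3, 1567 genes were called, against 394 without the Rn45s-rich libraries, 12 in the 4 K36M and K36R libraries, 432 with no term for the K36M and K36I lines and 183 to 1934 with 1 library left out; members called were 0 in the first 3 and 0 to 1 in the last. For K36M against K36R, 222 genes and 2 members were called. Without a filter limma called 0 of each (1949 genes, or 13.7%, were at unadjusted p under 0.05 with the filter). The histone as a covariate gave 639 genes, and leaving out 1 library 0 to 471 genes and 0 to 2 members, 0 without either K36R library. Members called were 1 with library medians equal and 1 with a robust prior. The interaction gave 0 genes with the filter. Without it 798 genes and no member were called. That fit lets in genes with few reads and takes its spread from the H3.3 lines alone, and the 798 were not examined further. By log2 of normalised reads plus 1, members at least 1 from WT numbered 7 in H3.1 K36M, 5 in H3.3 K36M and 8 in H3.3 K36I. They numbered 5 in H3.1 K36R, 4 in H3.3 K36A, likewise 4 in H3.3 K36R, and 1 in H3.3 K36L. By plus 10 there were 2 in both H3.3 K36R and H3.3 K36A. These scales give low genes such as Lum, Kera and Podn more weight. By plus 1, Kera was counted in every mutant line, from 0 reads against 2 in H3.3 WT, and alone in H3.3 K36L. The share of all genes tested past 1 was not computed on these scales, so the counts have no background to be read against. Signs turned for Atg4b between K36M or K36I lines and the others with array weights (0.001), for Prelp between H3.1 and H3.3 without that term (-0.21), and for the Ogn interaction without H3.3 K36M (0.503, in a range of -1.124 to 0.503 with 1 library left out). The causes were not tested. The interaction could not be fitted without an H3.1 library. The labels carry no replicate numbers to pair lines by; the only pairing run, of K36M with K36R within each histone, is the fit with the histone as a covariate, in which Aspn passed (adjusted p = 0.0174) where it did not otherwise (0.0585). Depth limits Lum, Kera and Podn, each with at most 39 reads in any library, and Fmod in the K36M and K36I lines, with 22 to 86 reads.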
